A study of Homo sapiens with 2 samples.

Results

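The genes of human chromosome 2 were compared between 2 RNA sequencing libraries of SAS, an established oral cancer cell line. Members were the genes of chromosome 2 that reached at least 1 RPKM (reads scaled to transcript length and to library depth) in either library, with the RPKM of a gene's transcripts summed. There were 833 such genes, out of 1657 genes of the chromosome in the table and out of 12471 genes compared on all chromosomes. They were ordered by start position and divided at 132.7 Mb (genome build hg38) into a lower stretch of 500 genes and the rest of the chromosome, 333 genes. The division point was chosen from the same log2 ratios that are described here, so the contrast between the stretches is a description and carries no test.

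Per the labels, 1 sample stably carried pLKO.AS2 with an ASC insert and the control sample carried pLKO.AS2 alone. Both lines were kept in DMEM with serum under G418 and puromycin, and nothing in the labels says whether either line is 1 clone or a pool. Each group had 1 library, with 31426491 listed reads for ASC and 31289581 for the control, so no difference has a replicate check. PYCARD, the gene that encodes ASC, stood at 266.5 RPKM in the ASC library and at 1.36 RPKM in the control library. All 8 markers of squamous epithelial cells examined reached 1 RPKM, and their sum was 1130 RPKM with ASC and 1093 RPKM in the control. Single markers went either way: KRT5, KRT6A, DSG3 and TP63 were lower with ASC, and KRT14, KRT17, CDH1 and SFN were higher. KRT5 had 311.0 RPKM with ASC and 421.0 RPKM in the control, and KRT17 had 406.6 and 334.7 RPKM. None of 5 fibroblast markers and none of 4 blood cell markers reached 1 RPKM, while 1 of 3 endothelial markers did. DCN, CD3E and HBB among these were not listed in the deposited data and were counted as below 1 RPKM.

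Neighbouring genes mostly serve unrelated functions, and many are transcribed from a promoter of their own. Such a promoter is often a CpG island rich in GC boxes, the short motif bound by Sp1-family factors. Expression ratios are therefore plotted in chromosomal order to see whether neighbours of unrelated function stand together. ASC joins inflammasome sensors to caspase-1, and chromosome 2 carries the interleukin 1 cytokine genes, among them IL1B, whose product caspase-1 cleaves.

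The promoters of genes that stood farthest from the lower stretch as a whole are shown first. These are the genes of the stretch past 2-fold in either direction, chosen after their values were seen, where the window held at most 30 annotated exon bases. LBH, which also passed 2-fold, is not shown because 165 bases of its window are exonic. Each sequence is the 250 bases before the RefSeq transcription start (GRCh38.p14), written 5′ to 3′ on the gene's own strand, and capitals mark matches to the GC box GGGCGG or the E-box CACGTG on either strand. PXDN, INHBB and SH3RF3 were higher in the ASC library and IAH1 was lower.
PXDN (chr2:1744516-1744765, minus strand): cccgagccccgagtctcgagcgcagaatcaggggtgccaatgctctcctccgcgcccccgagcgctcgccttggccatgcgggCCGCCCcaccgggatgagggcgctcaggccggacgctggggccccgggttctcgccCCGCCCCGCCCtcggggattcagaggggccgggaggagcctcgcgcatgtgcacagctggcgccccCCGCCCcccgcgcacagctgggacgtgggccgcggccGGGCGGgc
INHBB (chr2:120345886-120346135, plus strand): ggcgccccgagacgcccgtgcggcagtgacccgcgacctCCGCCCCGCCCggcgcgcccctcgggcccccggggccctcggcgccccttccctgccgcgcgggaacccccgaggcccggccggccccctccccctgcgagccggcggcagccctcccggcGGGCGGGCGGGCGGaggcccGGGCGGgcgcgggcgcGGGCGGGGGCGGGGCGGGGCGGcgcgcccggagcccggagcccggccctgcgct
SH3RF3 (chr2:109128955-109129204, plus strand): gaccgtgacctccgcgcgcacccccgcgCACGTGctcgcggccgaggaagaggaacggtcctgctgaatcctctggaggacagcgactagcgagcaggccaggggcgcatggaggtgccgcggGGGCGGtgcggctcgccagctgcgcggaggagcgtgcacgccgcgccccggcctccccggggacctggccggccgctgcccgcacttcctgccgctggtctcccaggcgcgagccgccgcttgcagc
IAH1 (chr2:9474301-9474550, plus strand): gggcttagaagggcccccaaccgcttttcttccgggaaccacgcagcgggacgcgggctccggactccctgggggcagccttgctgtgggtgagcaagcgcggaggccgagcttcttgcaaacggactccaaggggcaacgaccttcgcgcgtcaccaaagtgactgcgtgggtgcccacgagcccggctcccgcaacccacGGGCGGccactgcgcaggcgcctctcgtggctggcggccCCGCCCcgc

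The INHBB window held 10 GC boxes, that of PXDN 5, that of IAH1 2 and that of SH3RF3 1, beside 1 E-box. A RefSeq promoter was matched for 416 of the 500 genes of the lower stretch and for 275 of the 333 genes of the rest. GGGCGG on either strand was found in 70.0% of the former and 70.5% of the latter, against 42.3% of all 27305 RefSeq promoters of the same length. The sets are unlike, since chromosome 2 genes had to reach 1 RPKM and the RefSeq set has no expression minimum. CACGTG was found in 5.77% of lower-stretch windows, 11.3% of those of the rest and 6.49% of all. The AP-1 motif TGANTCA was in 2.40%, 3.27% and 6.60%, and the CRE motif TGACGTCA was in 2.40%, 1.09% and 1.77%. Median CpG counts per window were 24 in the lower stretch, 22 in the rest and 11 in all RefSeq promoters. A match describes the letters of a window only and no site or cause.

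Genes of the lower stretch stood slightly and broadly lower in the ASC library. The log2 ratio, ASC over control after adding 1 RPKM to each value, had a median of -0.20 over the 500 genes, with quartiles of -0.34 and -0.08. In plain RPKM the median ratio was 0.860, and the median level was 10.8 RPKM with ASC and 12.8 RPKM in the control. Of the 500 genes, 419 (83.8%) had a log2 ratio below 0, where 48% of all compared genes did. In the rest of the chromosome the median was -0.04, with quartiles of -0.19 and 0.09, and 194 of 333 genes (58.3%) lay below 0. The medians of the stretches differed by -0.15. With no minimum on RPKM, which adds genes with few reads, the medians were -0.10 and -0.01. Genes of the other chromosomes had a median of 0.02, and 46.2% of them lay below 0. In bulk RNA, a change in the share of cells that express a gene and a change in RNA per cell cannot be told apart.

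**Figure D1:**
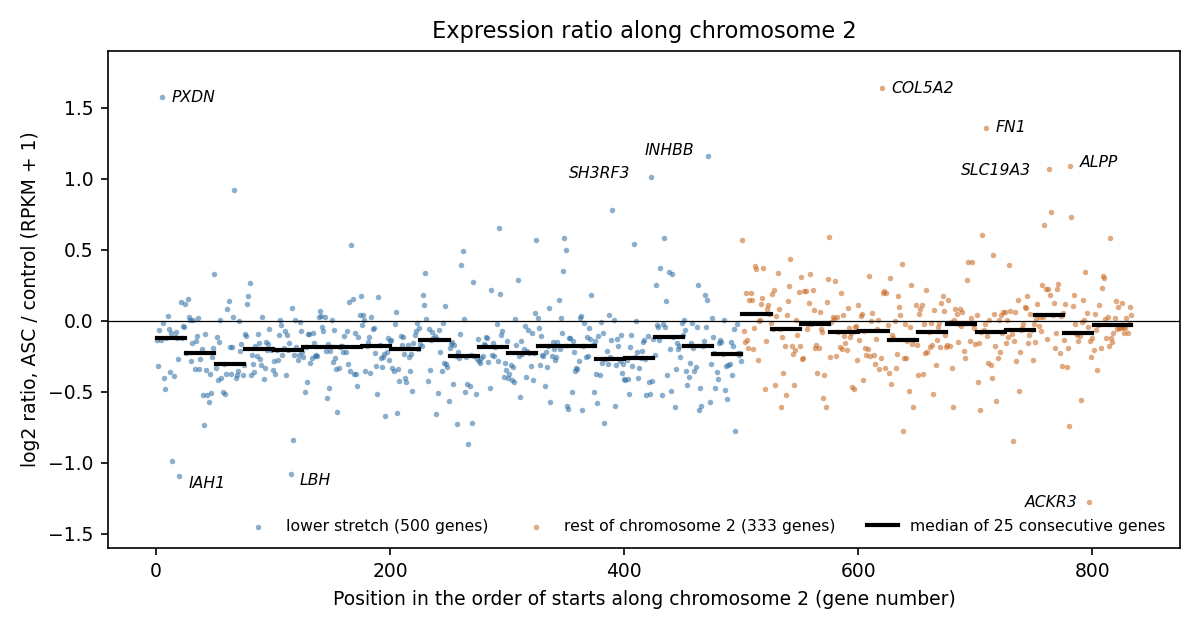
Log2 ratio (ASC over control, RPKM + 1) of each compared gene of chromosome 2, in the order of gene starts, with the lower stretch in blue, the rest in orange and black bars for medians of 25 consecutive genes (8 in the last bar). All 20 bars of the lower stretch lie between -0.30 and -0.12, and the first bar of the rest lies at 0.05.

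Shares of reads were taken over all listed genes with no RPKM minimum, 965 in the lower stretch and 692 in the rest. Transcripts of the lower stretch took 3.61% of all listed reads in the ASC library (exact 95% binomial interval 3.606% to 3.619%). In the control library they took 4.21% (4.202% to 4.216%). Here and below, an interval covers nothing but counting error, and reads are not separate molecules. The ratio of these shares was 0.858. For the rest of the chromosome the shares were 2.60% and 2.58%. Without FN1, which alone accounts for 46929 of those reads with ASC, they were 2.45% and 2.53%, a ratio of 0.969.

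Per gene, a 95% interval was computed for the ratio of depth-scaled reads. In the lower stretch 340 genes (68.0%) had a log2 ratio below 0 and an interval wholly below 0, a rule that 26.8% of all compared genes met. In the rest 117 genes (35.1%) met it. The opposite rule, ratio and interval above 0, was met by 31 genes of the lower stretch (6.20%), by 63 of the rest (18.9%) and by 28.2% of all compared genes. The median gene of the lower stretch had 1052 reads with ASC and 1240 in the control. The sets overlapped widely: 70 genes of the rest (21.0%) and 17.1% of genes on other chromosomes lay at or below the lower-stretch median.

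**Figure D2:**
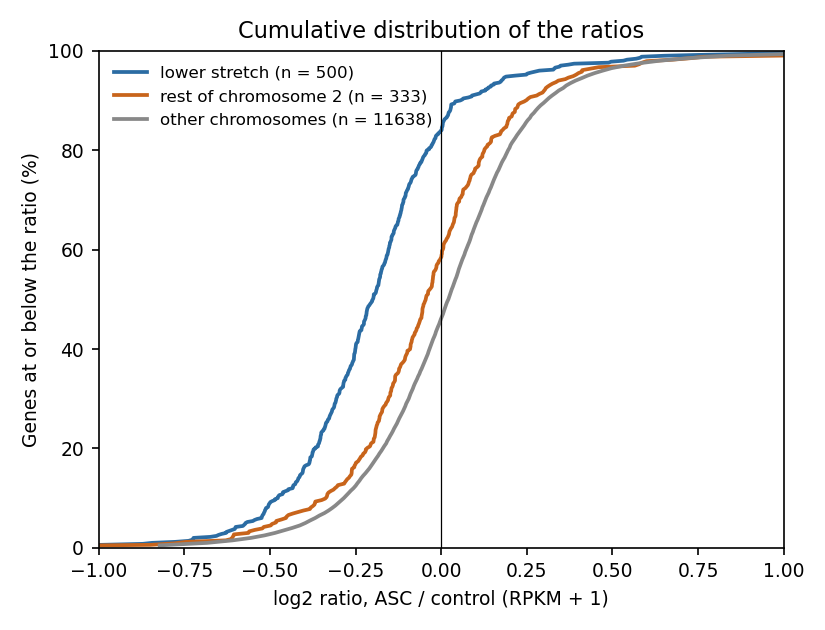
Cumulative share of genes (%) by log2 ratio (ASC over control, RPKM + 1) for the lower stretch, the rest of chromosome 2 and the other chromosomes, with ratios beyond 1 in either direction not drawn. The lower-stretch curve is displaced to the left along most of its length, crossing 0 at 83.8% where the rest crosses at 58.3% and the other chromosomes at 46.2%.

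The same 500 genes are described here by level, strand and type. Those below 5.74 RPKM on average had a median of -0.18, those up to 19.2 RPKM -0.23 and those above that -0.19. The share below 0 was 75.3%, 86.7% and 88.0% in the same order. Genes read from the plus strand had a median of -0.19 and those from the minus strand -0.22. The 444 protein-coding genes had a median of -0.20 and the other 56 genes -0.15. Transcripts had a median length of 2423 bases and a GC content of 46.4% in the lower stretch, 2402 bases and 44.9% in the rest, and 2397 bases and 49.7% on other chromosomes.

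Along the stretch the size of the shift varied. Medians of 25 consecutive genes ran from -0.30 for HS1BP3 to HADHB (starts of 20.6 to 26.2 Mb) to -0.12 for RGPD5 to CKAP2L (109.8 to 112.7 Mb). The first window, FAM110C to GRHL1, also stood at -0.12. The share of genes below 0 per window ran from 72.0% to 96.0%. The widest interval without a compared gene spanned 8.76 Mb, from GCFC2 to SUCLG1. The 319 genes before it and the 181 after it had medians of -0.20 each. The longest unbroken run of genes below 0 counted 22, from BCL11A at 60.5 Mb to VPS54 at 63.9 Mb. On other chromosomes 44 of 456 such windows had a median of -0.12 or less.

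Chromosome 2 had the lowest median of the 23 chromosomes with at least 100 compared genes, -0.15 over its whole length. Chromosome 7 followed at -0.13 and chromosome 8 at -0.10, and chromosome 20 was highest at 0.16. The longest unbroken series of windows at or below -0.1 counted 20 on chromosome 2, 16 on chromosome 7, 10 on chromosome 19 and 6 on chromosome 8. The distal part of chromosome 2 taken alone, at -0.04, lay level with chromosome 19.

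**Figure D3:**
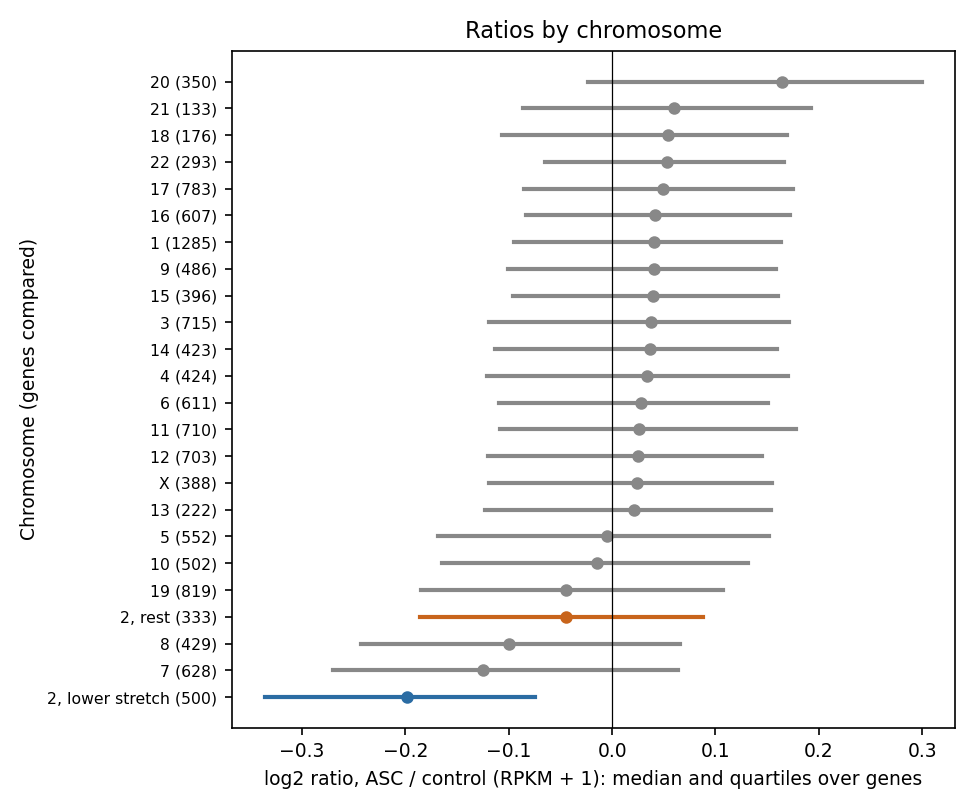
Median (point) and quartiles (line) of the log2 ratio (ASC over control, RPKM + 1) for each chromosome with at least 100 compared genes, with the number of genes in brackets and chromosome 2 drawn as its 2 stretches. The lower stretch of chromosome 2 is lowest at -0.20, and the rest of chromosome 2 lies beside chromosome 19 at -0.04. Only chromosome 2 is divided, at a point chosen from these ratios, while the others are drawn whole. The places of its stretches in the order therefore do not compare like with like.

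A single step was placed at every gene in turn, and the sum of absolute deviations from the medians on either side was smallest for a step between GPR39 and AC010890.1, which is the division used here. That step lowered the sum by 5.81% relative to no step, and steps 1 gene to either side lowered it by 5.72%. Steps far from it were nearly as good: one before PTPN18 at 130.4 Mb lowered the sum by 5.52%, one before SPOPL at 138.5 Mb by 5.52% and one before GTDC1 at 143.9 Mb by 5.44%. The ratios therefore set no narrow bound on where the shift ends. Because the division was chosen on these ratios, its return as the best step is no independent support. In bins of 10 Mb, medians ran from -0.25 to -0.12 up to 130 Mb. The bin from 130 to 140 Mb, which holds genes of both stretches, stood at -0.15, and the next at 0.06 over 6 genes.

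FAM168B had 37.7 RPKM with ASC and 38.4 RPKM in the control, a log2 ratio of -0.02 inside the lower stretch. PLEKHB2, at 37.0 and 43.5 RPKM, had a ratio of -0.23, and MZT2A, which encodes a component of the γ-tubulin ring complex, had 88.9 and 105.3 RPKM and a ratio of -0.24. Reads of MZT2A may be shared with its near-identical copy MZT2B. AC093838.4 stood at 3.89 and 4.75 RPKM. The last gene inside was GPR39, a zinc-sensing receptor, with 1.18 and 1.66 RPKM, 117 and 165 reads, and a ratio of -0.29.

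The first gene outside was the unnamed locus AC010890.1, with 1.08 and 0.406 RPKM from only 21 and 8 reads. MGAT5, which adds branches to N-glycans, followed at 10.3 and 10.9 RPKM and a ratio of -0.07. CCNT2, a cyclin of the P-TEFb elongation factor, had 8.57 and 9.61 RPKM and a ratio of -0.15. RAB3GAP1 had 29.8 and 25.9 RPKM and a ratio of 0.19, and ZRANB3, a replication fork remodeller that overlaps it on the other strand, had 5.72 and 6.38 RPKM and a ratio of -0.13. The libraries are not stranded, so reads from exons that overlap on opposite strands cannot be told apart by strand. Overlap here is of whole gene spans, and how far exons overlap was not examined. MCM6, a subunit of the replicative helicase, stood at 40.5 and 35.3 RPKM. Genes below the division thus lay mostly under 0 and those just above it on both sides of 0.

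At the other threshold, 1 RPKM, the nearest genes inside were AC112229.1 with 0.395 and 1.004 RPKM and MGAT4A with 1.02 and 0.176 RPKM. The nearest outside were KCNS3 with 0.382 and 0.994 RPKM and AC007405.6 with 0.990 and 0.829 RPKM.

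**Figure D4:**
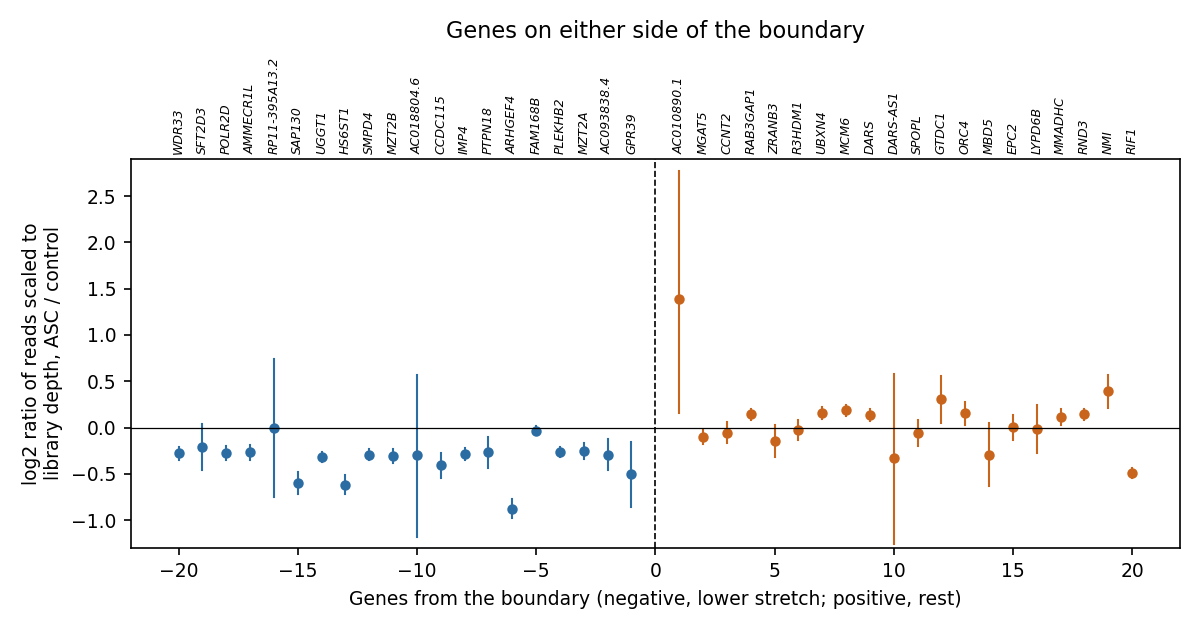
Log2 ratio of depth-scaled reads (ASC over control) with its 95% counting interval for the 20 compared genes on each side of the division at 132.7 Mb, with the lower stretch in blue and the rest in orange. Blue points lie at or below 0 and orange points on both sides of it, and AC010890.1 has the widest interval above the line from 21 and 8 reads.

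Few genes of the lower stretch differed by much. At least 2-fold lower on the log2(RPKM + 1) scale were 2 of 500 genes, IAH1 and LBH, where 0.265% of all compared genes met that limit. The count was 8 with a pseudocount of 0.1 RPKM and 0 with 3 RPKM. The share of all compared genes was not counted with those pseudocounts. IAH1 (9473658 to 9496543, plus strand), which encodes an esterase, had 5.97 RPKM with ASC and 13.9 RPKM in the control. Its ratio was -1.10, from 242 and 558 reads. It overlaps ADAM17 on the other strand, a gene that stood slightly higher with ASC, at 23.3 against 21.2 RPKM. LBH, a transcription cofactor, had 0.574 and 2.32 RPKM and a ratio of -1.08, from 60 and 230 reads.

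The other genes lowest in ratio among those of at least 5 RPKM have varied functions. GALNT14, which starts mucin-type O-glycosylation, stood at 5.47 RPKM with ASC and 10.6 RPKM in the control, a ratio of -0.84 that was -0.46 when the highest transcript stood for the gene. ARHGEF4 had 8.42 and 15.1 RPKM and a ratio of -0.78. GEN1, a Holliday junction resolvase, had 5.76 and 10.3 RPKM and a ratio of -0.74, and SMC6, which overlaps it, had -0.52. TIA1, an RNA-binding protein of stress granules, had 22.3 and 37.6 RPKM, a ratio of -0.73. ZNF638 had 17.3 and 29.2 RPKM, a ratio of -0.72. On the highest transcript alone GEN1 stood at -0.51, TIA1 at -1.06 and ZNF638 at -0.59. CCDC88A, the actin-binding protein girdin, had a ratio of -0.67, and ETAA1, an activator of the ATR kinase, of -0.66. DUSP2, a phosphatase of MAP kinases, and STEAP3, an endosomal ferrireductase, had -0.63 each. The read interval of all 10 genes lay wholly below 0, which their choice as the lowest ratios of the same libraries largely fixes.

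At least 2-fold higher were 3 of 500 genes, PXDN, INHBB and SH3RF3, and 0.617% of all compared genes met that limit. PXDN (1631887 to 1744852, minus strand) encodes peroxidasin, which cross-links type IV collagen in basement membranes. It stood at 32.9 RPKM with ASC and 10.4 RPKM in the control, from 7451 and 2437 reads, 3.17-fold higher and a log2 ratio of 1.57. Its neighbours TMEM18 and TSSC1 had ratios of -0.14 and -0.02. INHBB, the βB subunit of activins and inhibins, had 6.93 and 2.55 RPKM, from 792 and 292 reads, and a ratio of 1.16. It lies between RALB at 0.15 and CLASP1 at -0.57. SH3RF3, a RING-type ubiquitin ligase, had 2.17 and 0.573 RPKM, from 450 and 119 reads, and a ratio of 1.01, between CCDC138 at -0.52 and SEPT10 at -0.43. LBH and SH3RF3 were below 5 RPKM in both libraries and are named here after their values were seen. Each reached 1 RPKM only in the library where it was higher, so the filter admitted it through that library.

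The genes called escaping were the 31 whose ratio and read interval both lay above 0. Some of them, among these SH3RF3 and MGAT4A, reached 1 RPKM only in the ASC library, where they were higher. A further 50 genes of the stretch had a ratio above 0 but an interval that did not clear it. Of the 31, 26 are protein-coding, 10 were below 5 RPKM in both libraries, 12 had a ratio below 0.2 and 10 a ratio of at least 0.5. The median ratio of the 10 nearest compared genes, 5 on each side, ranged from -0.37 to -0.03 over the 31, a range that the choice of the stretch largely fixes. Around BUB1, whose neighbours stood highest, 6 of 10 were below 0. The 31 genes formed 6 adjacent pairs, among them SLC35F6 with CENPA, PRKCE with EPAS1, TGFA with ADD2, and RALB with INHBB. SLC35F6 and CENPA overlap, with starts at 26764284 and 26764289, so reads may be split between them. The remaining pairs came from an unbroken run of CYTOR with the pseudogenes AC093616.4 and RP11-1378G18.1.

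After PXDN and INHBB, the escaping genes of at least 5 RPKM with the highest ratios were TCF7L1, a TCF/LEF transcription factor of Wnt signalling, at 8.21 RPKM with ASC and 5.21 RPKM in the control, and PRKCE, protein kinase C epsilon, at 11.7 and 7.77 RPKM. Their ratios were 0.57 and 0.53, and that of PRKCE was 0.33 from its highest transcript alone. TGFA, a ligand of the EGF receptor, stood at 32.8 and 24.8 RPKM, a ratio of 0.39. The long noncoding RNAs CYTOR and MIR4435-2HG, near-identical copies between which reads may be split, had 53.6 and 41.9 RPKM and 67.1 and 52.6 RPKM, both with ratios of 0.35. TMEM87B had 10.7 and 8.35 RPKM, a ratio of 0.33 that was 0.21 with the highest transcript. INSIG2, which holds the SREBP activator SCAP in the endoplasmic reticulum, had 24.9 and 20.8 RPKM, a ratio of 0.25, and WDR54 had 19.96 and 17.4 RPKM, a ratio of 0.19. EPAS1, the hypoxia-inducible factor 2α, had 74.7 and 67.1 RPKM, a ratio of 0.15, and the spectrin SPTBN1 46.8 and 41.5 RPKM, a ratio of 0.17.

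**Figure D5:**
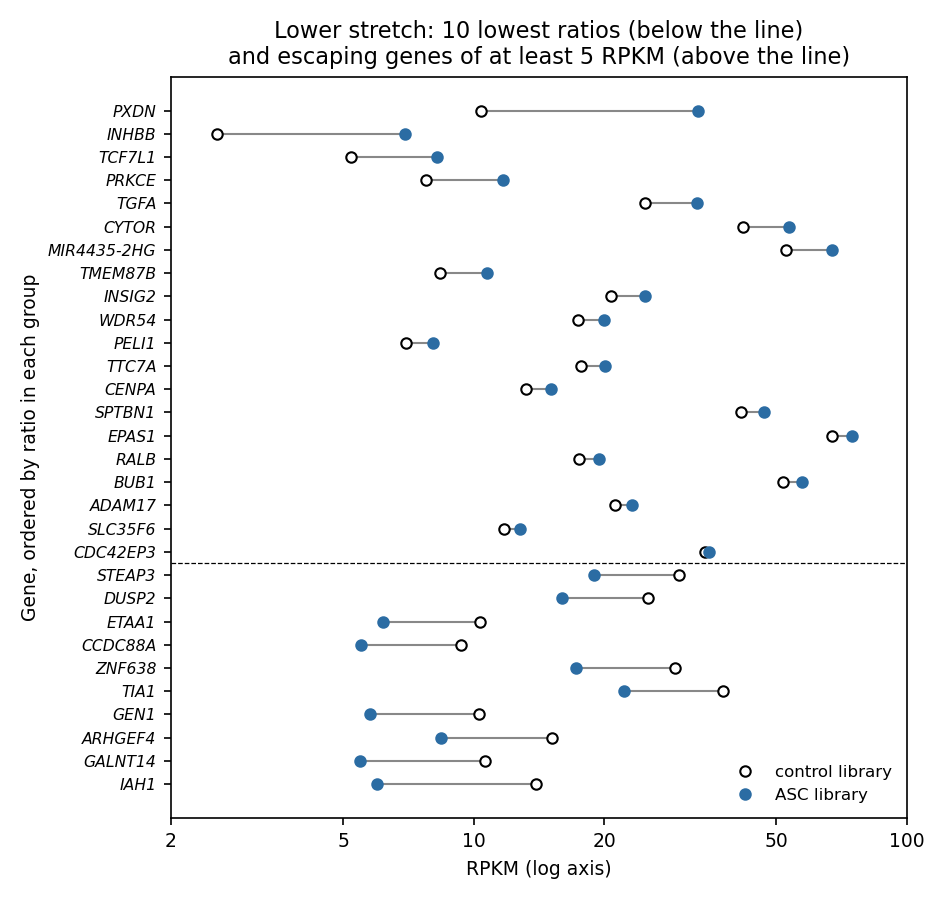
RPKM (log axis) in the control library (open circles) and the ASC library (filled circles) for genes of the lower stretch of at least 5 RPKM in either library, with the 10 lowest ratios below the dashed line and the 20 escaping genes that the naming rule allows above it. PXDN spans 10.4 to 32.9 RPKM and IAH1 13.9 to 5.97 RPKM, while most escaping genes differ little between the libraries.

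Promoters of 27 escaping genes were matched. GGGCGG was in 20 of them (74.1%), TGANTCA in 2 (7.41%), CACGTG in 2 (7.41%) and TGACGTCA in none. Their median CpG count was 25 against 24 for the stretch.

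Genes grouped by function were counted next, from 14 lists in which 220 compared genes of the chromosome fell, 111 in the lower stretch and 109 in the rest. Of the former, 91 had a ratio below 0, and of the latter 72. In 11 of the 13 lists with members in both stretches the lower-stretch median was below that of the rest. The lists rest on the same ratios as the division and are no separate evidence. Their counts are to be read beside the whole stretch, where 83.8% of genes had a ratio below 0 and 68.0% an interval below 0 as well. For the rest of the chromosome these shares were 58.3% and 35.1%, and for all compared genes 48% and 26.8%.

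All 14 splicing and RNA-handling genes of the lower stretch had a ratio and an interval below 0, with a median of -0.25, while 9 of 10 in the rest had a ratio below 0, with a median of -0.07. XPO1, the main nuclear export receptor, stood at 83.9 RPKM with ASC and 100.3 RPKM in the control, and SNRNP200, a spliceosomal helicase, at 74.7 and 89.2 RPKM. In the rest SF3B1, the branch-site recognition factor, had 80.7 and 83.3 RPKM.

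Of 15 translation genes in the lower stretch 14 were below 0, with a median of -0.25, and in the rest 4 of 6, with a median of -0.12. The ribosomal protein genes were among the most abundant members: RPL31 had a ratio of -0.41, RPS7 of -0.36 and RPS27A of -0.33. RPL37A, in the rest, had -0.18. The exception in the lower stretch was MRPL33, a mitochondrial ribosomal protein, at 78.9 and 78.6 RPKM. All 9 mitochondrial metabolism genes of the lower stretch had intervals below 0, with a median of -0.27, among them both subunits of the mitochondrial trifunctional protein of fatty acid oxidation, HADHA (-0.38) and HADHB (-0.31). In the rest 10 of 12 were below 0, with a median of -0.13, led by the complex I subunit NDUFB3 at -0.52, which overlaps FAM126B. Of the 10 protein folding and turnover genes in the lower stretch 8 were below 0, with a median of -0.18. The chaperonin subunits CCT4 and CCT7 had -0.23 and -0.27.

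Of the replication, repair and mitosis genes in the lower stretch 13 of 17 (12 with the interval as well) had a ratio below 0, with a median of -0.15, and in the rest 7 of 11, with a median of -0.07. The mismatch repair gene MSH6 had -0.15, and ERCC3, a helicase of TFIIH, had -0.48. CENPA, the centromeric histone H3 variant, stood at 15.1 RPKM with ASC and 13.2 RPKM in the control, and BUB1, a kinase of the spindle checkpoint, at 57.2 and 51.9 RPKM. Both intervals lay above 0, though reads of CENPA may be shared with SLC35F6, which it overlaps.

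The interleukin 1 genes of the lower stretch lay near or above 0. IL1A stood at 147.2 RPKM with ASC and 146.7 RPKM in the control, a ratio of 0.01, and its read interval from -0.04 to 0.03 held 0. IL1B had 63.8 and 66.9 RPKM, a ratio of -0.07 with an interval of -0.14 to -0.01. IL1RL1, the receptor of interleukin 33, had 3.91 and 2.37 RPKM and a ratio of 0.54. Among cell death regulators, BCL2L11, which encodes the pro-apoptotic BIM, had a ratio of -0.38, BIRC6 of -0.22 and BIN1 of -0.23, and in the rest CASP8 had 19.2 and 21.1 RPKM and a ratio of -0.13. EIF2AK2, the double-stranded RNA sensor kinase PKR and the only compared interferon-list gene of the lower stretch, had -0.15. In the rest 2 of 7 interferon-list genes were below 0.

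Among 7 adhesion genes of the lower stretch, with a median of -0.25, SDC1, the proteoglycan syndecan 1, had 76.9 and 110.2 RPKM and a ratio of -0.51. EPCAM, an epithelial adhesion molecule, had a ratio of 0.00. Of the 4 matrix genes PXDN was high, and MATN3, LTBP1 and EFEMP1 had ratios of -0.57, -0.51 and -0.14. Of the 7 transcription factor genes of the stretch 5 were below 0, with a median of -0.19. The lowest was ID2, an inhibitor of basic helix-loop-helix factors, at 0.912 and 2.80 RPKM and a ratio of -0.99. The NF-κB subunit gene REL had -0.42 and FOSL2 -0.19. Of 12 cytoskeletal genes 9 were below 0, with a median of -0.12 against 0.04 for 8 genes of the rest. The growth factor list had a median of 0.05 over 4 genes of the lower stretch, TGFA, INHBB, SOS1 and TGFBRAP1, and of -0.21 over 8 of the rest. The redox list had medians of -0.10 and -0.17.

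Beyond the division, the rest of the chromosome held 4 genes at least 2-fold higher and 1 at least 2-fold lower out of 333. Of all compared genes 0.617% and 0.265% met these limits. COL5A2, a chain of type V collagen, had 9.70 RPKM with ASC and 2.45 RPKM in the control, a ratio of 1.63, and FN1, fibronectin, had 180.5 and 69.8 RPKM, a ratio of 1.36. ALPP, the placental alkaline phosphatase, had 48.2 and 22.2 RPKM, a ratio of 1.09, and shares sequence with close paralogs. SLC19A3, a thiamine transporter, had 2.16 and 0.509 RPKM from 202 and 49 reads. ACKR3, an atypical receptor of the chemokine CXCL12, had 1.20 and 4.35 RPKM from 68 and 260 reads and a ratio of -1.28. SLC19A3 and ACKR3 were below 5 RPKM and are named after their values were seen. SLC19A3 reached 1 RPKM only in the ASC library, where it was higher. IRS1, the insulin receptor substrate, had a ratio of 0.67 and the kinase gene MAP3K20 of 0.59. CCNYL1, NABP1, RNF25, NMI and ORC4 followed with ratios of 0.41 to 0.36, and on counts scaled to depth NABP1 stood at 0.21 and ORC4 at 0.15. RNF25 and ORC4 each overlap a gene on the other strand. On the lower side WNT10A had 3.12 and 6.41 RPKM and a ratio of -0.85, SDPR, which encodes a cavin, -0.78, and the bromodomain gene BAZ2B -0.61, which was -0.26 with the highest transcript. HSPE1, the mitochondrial co-chaperonin, had 129.6 and 197.7 RPKM, a ratio of -0.61, and overlaps its partner HSPD1 on the other strand, which had -0.16. The others of the 10 lowest, IGFBP2, UGT1A6, METAP1D, RBMS1, NDUFB3 and RIF1, had ratios between -0.56 and -0.48. On the highest transcript RBMS1 stood at -0.31 and RIF1 at -0.75. NFE2L2, the oxidative stress factor NRF2, had 59.5 and 82.7 RPKM and a ratio of -0.47.

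Within the rest, 12 of 14 windows had a median below 0. The lowest was -0.13, for PMS1 to MARS2 (starts of 189.8 to 197.7 Mb), and the highest was 0.05, for the window next to the division. The window just before the division, TSN to GPR39, stood at -0.24. The bin from 220 to 230 Mb stood at 0.11 over 15 genes. The distal part thus lay near 0 with local departures in either direction, each smaller in size than the lower-stretch median.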

How the data were processed

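Poly(A) RNA of 2 SAS samples was sequenced after an unstranded TruSeq preparation, 1 library per group, per the labels' protocols. Per the file headers, the authors' deposited table lists 134092 transcripts, 9514 of them on chromosome 2, with estimated counts of reads and RPKM values for each library. Per the submitters' processing notes the coordinates are hg38. The choice of aligner, quantifier and annotation was not given in the sources used here. Of the chromosome 2 transcripts 99.0% had the same version in GENCODE release 29, and their starts were equal. Of 285 gene names that a spreadsheet had turned into dates, 284 were restored through the transcript identifier.

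RPKM was summed per gene. The log2 ratio of ASC over control used a pseudocount of 1 RPKM, which understates differences of low genes, and no further scaling. With 1 library per group no test was made. Exact (Clopper-Pearson) 95% intervals of the ratio of rounded estimated counts, scaled to listed reads, cover counting error only, and estimated counts of similar transcripts carry further error. The procedure was checked on simulated data.

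Named are, in each stretch, the 10 genes of highest and of lowest ratio among those of at least 5 RPKM, leaving out pseudogenes, readthrough and antisense loci, loci with no name and genes listed on several chromosomes. Also named are the 5 genes nearest the division on each side and members of the 14 gene lists. Further genes are named as such where they appear. Some genes that the rule names are left out. The members, the division, the lists and the alternatives were chosen with earlier results of these data known. Promoters are from RefSeq (GRCh38.p14). Tools were Python 3.11.15, pandas 2.3.3, numpy 2.4.6, scipy 1.17.1, matplotlib 3.10.9, R 4.3.3 and edgeR 4.0.16, the last for TMM scaling in an alternative.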

Additional observations from a re-analysis of the deposited data

How the results depend on the processing

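In 16 alternatives the median log2 ratio of the lower stretch stayed below 0 and below that of the rest. It ranged from -0.24 to -0.10, and its difference from the rest from -0.20 to -0.08. With no filter on low values (964 and 691 genes) the medians were -0.097 and -0.013, the difference -0.084 and the share of the lower stretch below 0 70.2%. A pseudocount of 3 RPKM gave a median of -0.17. TMM scaling and counts scaled to depth (CPM) gave medians of -0.239 and -0.237, differences of -0.197 and -0.197 and 87.3% below 0 each. A minimum of 5 RPKM gave 87.4%. Counts past 2-fold moved most. The lower stretch held 374 genes at 5 RPKM, 536 under TMM and under CPM, and 476 from the highest transcript. The rest held 242 genes at 5 RPKM and 366 under TMM and under CPM. The share of all compared genes past 2-fold was not counted under these settings. The counts therefore cannot be set against it and are no trait of the stretch. Genes at least 2-fold lower in the lower stretch numbered 8 with a pseudocount of 0.1, 0 with 3, 1 at 5 RPKM, 5 under TMM and under CPM, and 4 from the highest transcript of each gene. Those at least 2-fold higher numbered 7 with a pseudocount of 0.1 and 1 with 3. In the rest, genes 2-fold lower numbered 4, 0, 0, 3 and 3 with a pseudocount of 0.1, with 3, at 5 RPKM, under TMM and under CPM. Those 2-fold higher numbered 7 under TMM and under CPM. Under these settings the cause was not tested. The best step lay at 131.2 Mb with no filter and 135.1 Mb with the highest transcript. Escaping genes numbered from 21 at 5 RPKM to 42 with the highest transcript. Subtracting the median of genes of like GC content or like length, or requiring 100 reads summed over both libraries, were chosen after seeing the data. With GC subtracted the medians were -0.21 and -0.04. Of 589 values for 50 named genes, 36 differed from the main ratio by more than the gene's counting interval reaches from its midpoint. A change of sign was counted only for genes whose interval excluded 0, and none was found. Most of these genes were named for extreme ratios in the same libraries, which largely fixes that outcome. No paired analysis was possible because each group has 1 library. Depth limits genes near 1 RPKM, where a few reads set the ratio.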
